A study of Mus musculus with 60 samples.

Results

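Interferon signalling was followed through 43 mouse genes: receptors and kinases, transcription factors, feedback inhibitors, antiviral effectors and RNA sensors, interferon-inducible GTPases and 1 chemokine. They were picked by annotated or current gene symbol from the value tables of both array parts. Of the 43, 40 had a probe in the tables and 33 were measured in enough cultures to be tested, among 8108 genes tested in all. Gbp2, Gbp3, Ifit1, Irf7, Jak2, Mx2 and Socs1 had a probe but were measured in too few cultures. The expression of Bst2, Ifngr2 and Xaf1 was not analysed here, and only their promoter windows were searched.

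Type I interferons bind the receptor pair Ifnar1 and Ifnar2, and interferon gamma binds Ifngr1 with its partner chain. The receptors pass the signal through the kinases Jak1 and Jak2 and their relatives to transcription factors, among them Stat2 and Irf9, and these switch on genes that carry an interferon-stimulated response element. The induced genes include sensors of viral RNA, proteins that block virus entry or translation, guanylate-binding GTPases and the inhibitors that end the signal. Cells also keep many of these genes at a low basal level without infection.

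The study compared 5 mouse cell lines in work on OPMD, or oculopharyngeal muscular dystrophy, in which the poly(A)-binding protein Pabpn1 has an expanded alanine tract. D7E is the line with mutant Pabpn1 and the label high, D7F the mutant line with the label low, WTA the wild-type Pabpn1 line with the label high, WTD the wild-type line with the label low, and IM2 is untransfected. Each line was grown as 3 cultures, and total RNA of each culture was set against a common IM2 reference on 2-colour arrays. The labels name neither a tissue nor the promoter of the transgene, nor whether a line is 1 clone, and there is only 1 line for a given genotype and level. No line is labelled as transfected without Pabpn1, so against IM2 transfection, added Pabpn1 and the particular lines cannot be told apart.

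Each culture was measured on 4 arrays, with both dye orientations on 2 array parts that carry different probes, which made 60 arrays for 15 cultures. Values are log2 ratios of culture over IM2 reference, with the deposited log ratios taken to be in base 10, and folds hold only under that base. The arrays were uneven: 46.0% to 99.9% of the rows were filled, 0.721% to 33.2% of the filled values lay at a limit of the scale and were dropped, and 5 of the 9 poorest arrays were IM2 arrays. Pabpn1 itself averaged 1.61 in D7E, 0.92 in D7F, 2.19 in WTA and 1.43 in WTD, against -0.18 in IM2. Changed means an adjusted p under 0.05 in limma over all 9704 probes. The spread behind each p is that between cultures of a line, which may be partly technical.

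Members of the interferon group were more often lower than higher in the transfected lines. The list was chosen with earlier results of these data known, so the shares describe it and do not test the pathway. In the transfected mean (D7E, D7F, WTA and WTD weighted equally) against IM2, 10 of 33 members fell, against 8.83% of all probes, and 1 rose, against 6.41% of all probes. The median difference of the members was -0.25 on the log2 scale, against 0.03 for all probes, and 22 of 33 members were below 0, against 46.8% of all probes. The 10 that fell were Isg15, Ifitm3, Tgtp1, Socs3, Ifit3, Ifitm1, Trim25, Ifih1, Jak1 and Ifitm2, and the 1 that rose was Iigp1. Of the 24 members tested on part I, 5 fell and 1 rose, against 8.43% and 9.59% of the part I probes, and of the 9 tested on part II, 5 fell and 0 rose (limma; 13 of the 33 had an unadjusted p under 0.05), against 9.2% and 3.48% of the part II probes. The part II members that fell were Ifitm1, Ifitm2, Ifitm3, Ifih1 and Socs3. No marker shows the direction of the part II ratios, which were read as culture over reference like those of part I, and these 5 members would count as higher were they to run the other way. Of 142 genes with 1 tested probe on each part, 6 changed on both, all with the same sign on both. The transfected cultures did not overlap the IM2 cultures for 9 members, all but Jak1 of those that fell. Such separation was found for 11.5% of all probes. Without IM2 culture 1, 7 members passed in place of 11, against 6.62% of all probes in place of 15.2%. In bulk RNA, fewer cells of a type and less RNA per cell cannot be told apart.

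**Figure D1:**
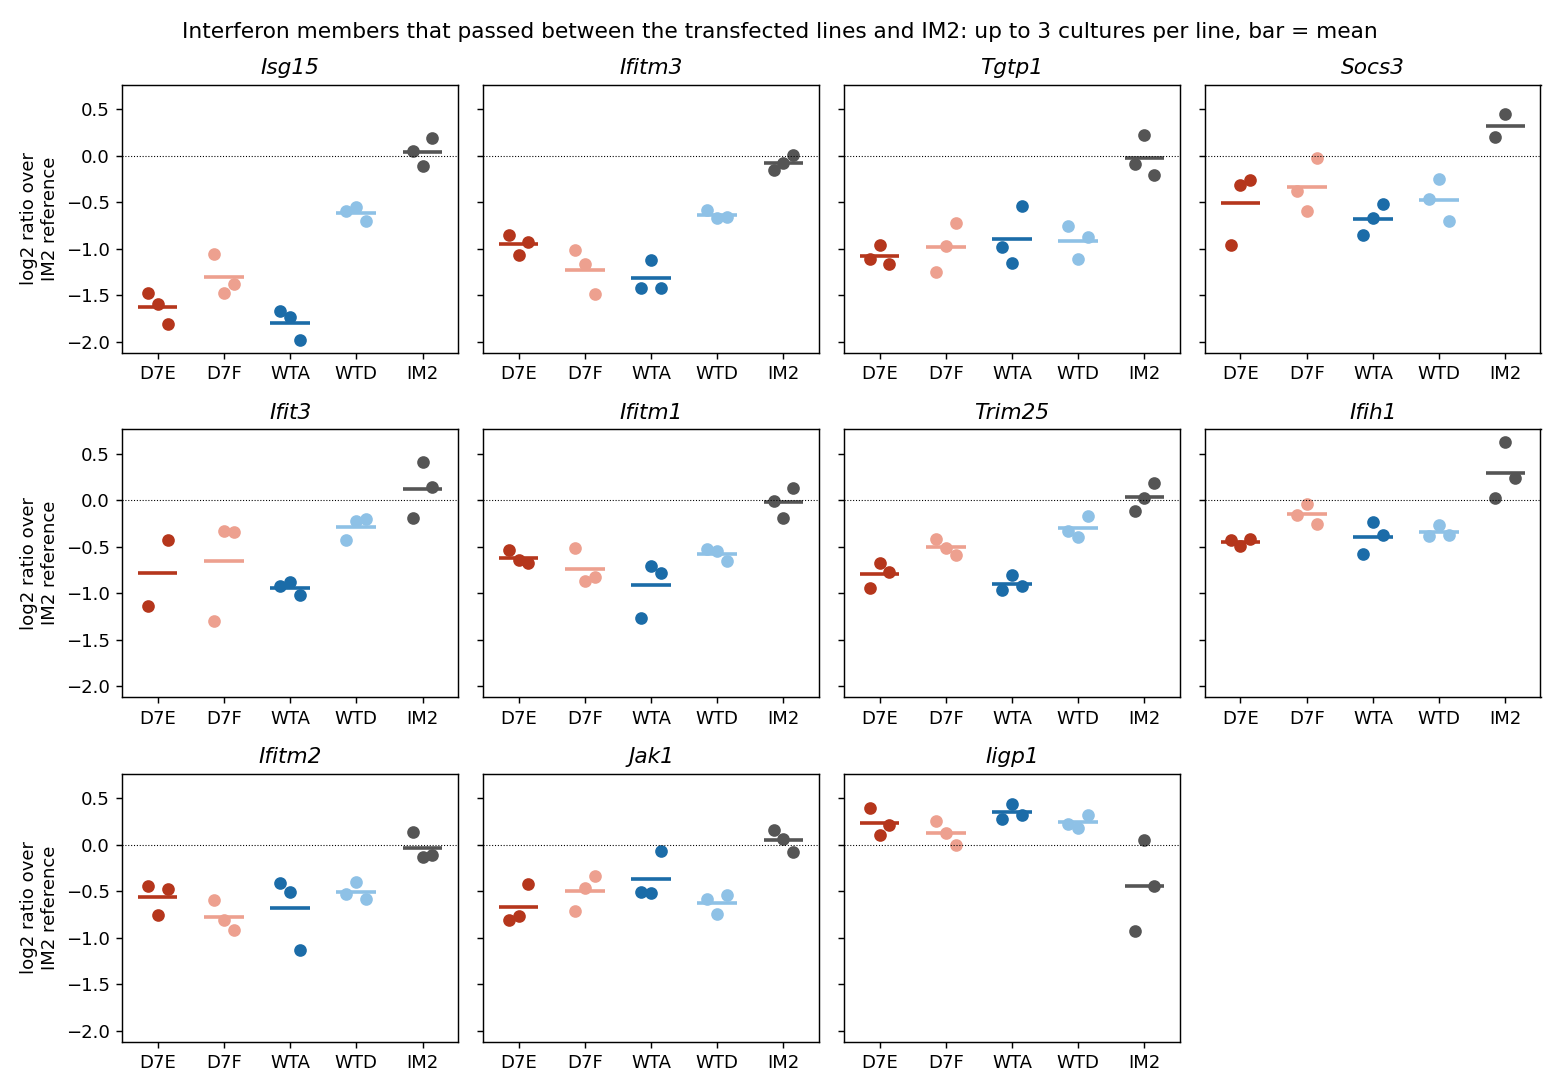
Log2 ratio over the IM2 reference (vertical axis) in each culture (points) of D7E, D7F, WTA, WTD and IM2 (horizontal axis, left to right) for the 11 members that changed between the transfected lines and IM2, with the line mean as a bar. Isg15 sits between -1.99 and -0.55 in the 12 transfected cultures, below all 3 IM2 cultures, while for Iigp1 the spread lies mostly among the IM2 cultures.

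Antiviral effectors and RNA sensors held 7 of the 10 members that fell, out of 15 tested, against 8.83% of all probes. None of the 15 rose, against 6.41% of all probes. The median difference of these 15 was -0.50. Isg15, a ubiquitin-like protein that is attached to other proteins after interferon, showed the largest fall of the tested members. Its log2 ratios were -1.48, -1.60 and -1.80 in D7E, -1.06, -1.48 and -1.38 in D7F, -1.67, -1.74 and -1.99 in WTA and -0.59, -0.55 and -0.70 in WTD, against 0.05, -0.11 and 0.19 in IM2. WTD lay nearest to IM2 and no transfected culture reached the IM2 range. The transfected mean was 2.60-fold lower (difference -1.38 ± 0.11 SE, 12 cultures of the transfected lines against 3 of IM2, limma adjusted p = 3.19e-05).

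The Ifitm proteins sit in cell membranes and hinder the entry of enveloped viruses. Ifitm3 had log2 ratios of -0.86, -1.07 and -0.93 in D7E, -1.01, -1.17 and -1.49 in D7F, -1.42, -1.12 and -1.42 in WTA and -0.58, -0.67 and -0.66 in WTD, against -0.15, -0.08 and 0.007 in IM2. The groups did not overlap, and the transfected mean was 1.94-fold lower (difference -0.96 ± 0.12 SE, limma adjusted p = 0.000214). Ifitm1 had -0.54, -0.65 and -0.68 in D7E, -0.51, -0.87 and -0.83 in D7F, -1.27, -0.70 and -0.78 in WTA and -0.52, -0.55 and -0.66 in WTD, against -0.02, -0.19 and 0.13 in IM2. All 12 transfected cultures were below all 3 IM2 cultures, with WTA culture 1 the lowest. The difference was -0.69 ± 0.13 (SE, limma adjusted p = 0.00412). For Ifitm2, the values were -0.45, -0.76 and -0.48 in D7E, -0.60, -0.81 and -0.92 in D7F, -0.41, -0.50 and -1.13 in WTA and -0.53, -0.40 and -0.58 in WTD, against 0.14, -0.13 and -0.12 in IM2. The groups did not overlap, and the difference was -0.59 ± 0.15 (SE, limma adjusted p = 0.0164). The adjusted p of Ifitm2 was 0.111 without IM2 culture 1, 0.0551 without IM2 culture 3, 0.0544 with 1 dye array per culture being enough, 0.109 on Cy3 arrays alone and 0.0801 on Cy5 arrays alone. The 3 Ifitm genes are similar in sequence, and how far each probe also binds RNA of the others was not tested.

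Trim25 and Ifih1 act in the sensing of viral RNA: Trim25 is a ubiquitin ligase known to act with the sensor RIG-I, and Ifih1 encodes the sensor MDA5. Trim25 had log2 ratios of -0.95, -0.67 and -0.78 in D7E, -0.42, -0.51 and -0.59 in D7F, -0.97, -0.80 and -0.93 in WTA and -0.33, -0.40 and -0.17 in WTD, against -0.11, 0.03 and 0.18 in IM2. The lines labelled high lay lower than those labelled low, and no transfected culture reached IM2. The difference against IM2 was -0.66 ± 0.09 (SE, limma adjusted p = 0.000806). Ifih1 had -0.43, -0.49 and -0.42 in D7E, -0.16, -0.05 and -0.26 in D7F, -0.58, -0.24 and -0.38 in WTA and -0.39, -0.27 and -0.38 in WTD, against 0.02, 0.63 and 0.23 in IM2. D7F lay nearest to IM2, the IM2 cultures had the widest spread (SD 0.31), and the groups did not overlap. The difference was -0.63 ± 0.13 (SE, limma adjusted p = 0.00523), and it was -0.04 (adjusted p = 0.84) when the IM2 arrays were given the opposite sign.

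Ifit3, of an interferon-induced family that acts on viral RNA, fell with a wider spread. It had log2 ratios of -1.14 and -0.43 in the 2 measured D7E cultures, -1.30, -0.33 and -0.34 in D7F, -0.93, -0.88 and -1.02 in WTA and -0.43, -0.23 and -0.20 in WTD, against -0.19, 0.41 and 0.14 in IM2. WTD culture 3 lay just below IM2 culture 1, so the groups were separate by a narrow margin. The difference was -0.79 ± 0.22 (SE, limma adjusted p = 0.0317). Without IM2 culture 1, 2 or 3 the adjusted p of Ifit3 was 0.0524, 0.109 and 0.109, without WTD culture 1 it was 0.0522, and without D7E culture 1 it was 0.0528. The difference of Ifit3 was -0.36 (adjusted p = 0.354) on Cy3 arrays alone, -1.07 (adjusted p = 0.237) on Cy5 arrays alone and -0.55 (adjusted p = 0.0994) with the IM2 arrays given the opposite sign. Ifit3 has a near-identical neighbour, Ifit3b, and the probe may bind RNA of both.

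The other 8 tested effectors and sensors did not pass against IM2 in the transfected mean. Eif2ak2, the kinase PKR that halts translation on double-stranded RNA, was -0.37 ± 0.12 (SE, limma adjusted p = 0.0536) on its part II probe. Its part I probe was measured in too few cultures. The remaining differences were -0.50 for Oasl2, -0.27 for Mx1, -0.22 for Rsad2, -0.17 for Ifi35, 0.15 for Ifit2, 0.23 for Oas1a and 0.27 for Adar, with adjusted p from 0.233 to 0.819. Mx1, a GTPase against influenza-like viruses, had a fall in WTA alone of the 4 line comparisons (-0.65, adjusted p = 0.0409). That value rests on -1.30 in WTA culture 1, beside -0.47 and -0.46 in WTA cultures 2 and 3.

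Among the interferon-inducible GTPases, 1 of 5 tested members fell, against 8.83% of all probes, and 1 rose, against 6.41%. Their median difference was 0.03, and single calls among 5 members do not describe the role. Tgtp1, a GTPase of the immunity-related family that acts at vacuoles of intracellular pathogens, had log2 ratios of -1.11, -0.96 and -1.17 in D7E, -1.25, -0.97 and -0.72 in D7F, -0.99, -1.16 and -0.55 in WTA and -0.76, -1.11 and -0.88 in WTD, against -0.09, 0.22 and -0.21 in IM2. The 4 transfected lines lay close together, and none of their cultures reached IM2. The difference was -0.94 ± 0.15 (SE, limma adjusted p = 0.00159), a fold of 1.92. Tgtp1 has a near-identical neighbour, Tgtp2, whose RNA the probe may also bind.

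Iigp1, of the same GTPase family, had the opposite sign. Its log2 ratios were 0.39, 0.11 and 0.21 in D7E, 0.26, 0.13 and -0.0041 in D7F, 0.28, 0.44 and 0.32 in WTA and 0.22, 0.17 and 0.32 in WTD, against -0.93, 0.05 and -0.45 in IM2. The transfected cultures lay close to the reference, the IM2 cultures 1 and 3 lay below it, and IM2 culture 2 overlapped the transfected range. The difference was 0.68 ± 0.15 (SE, limma adjusted p = 0.0121), and it was 0.44 (adjusted p = 0.0717) without IM2 culture 1 and 0.68 (adjusted p = 0.0573) without IM2 culture 3. With the IM2 arrays given the opposite sign it was -0.21 (adjusted p = 0.368), so the direction of Iigp1 rests on that of the IM2 arrays. The other GTPases were Irgm1 at -0.42, Ifi47 at 0.03 and Igtp at 0.08, none of which passed.

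**Figure D2:**
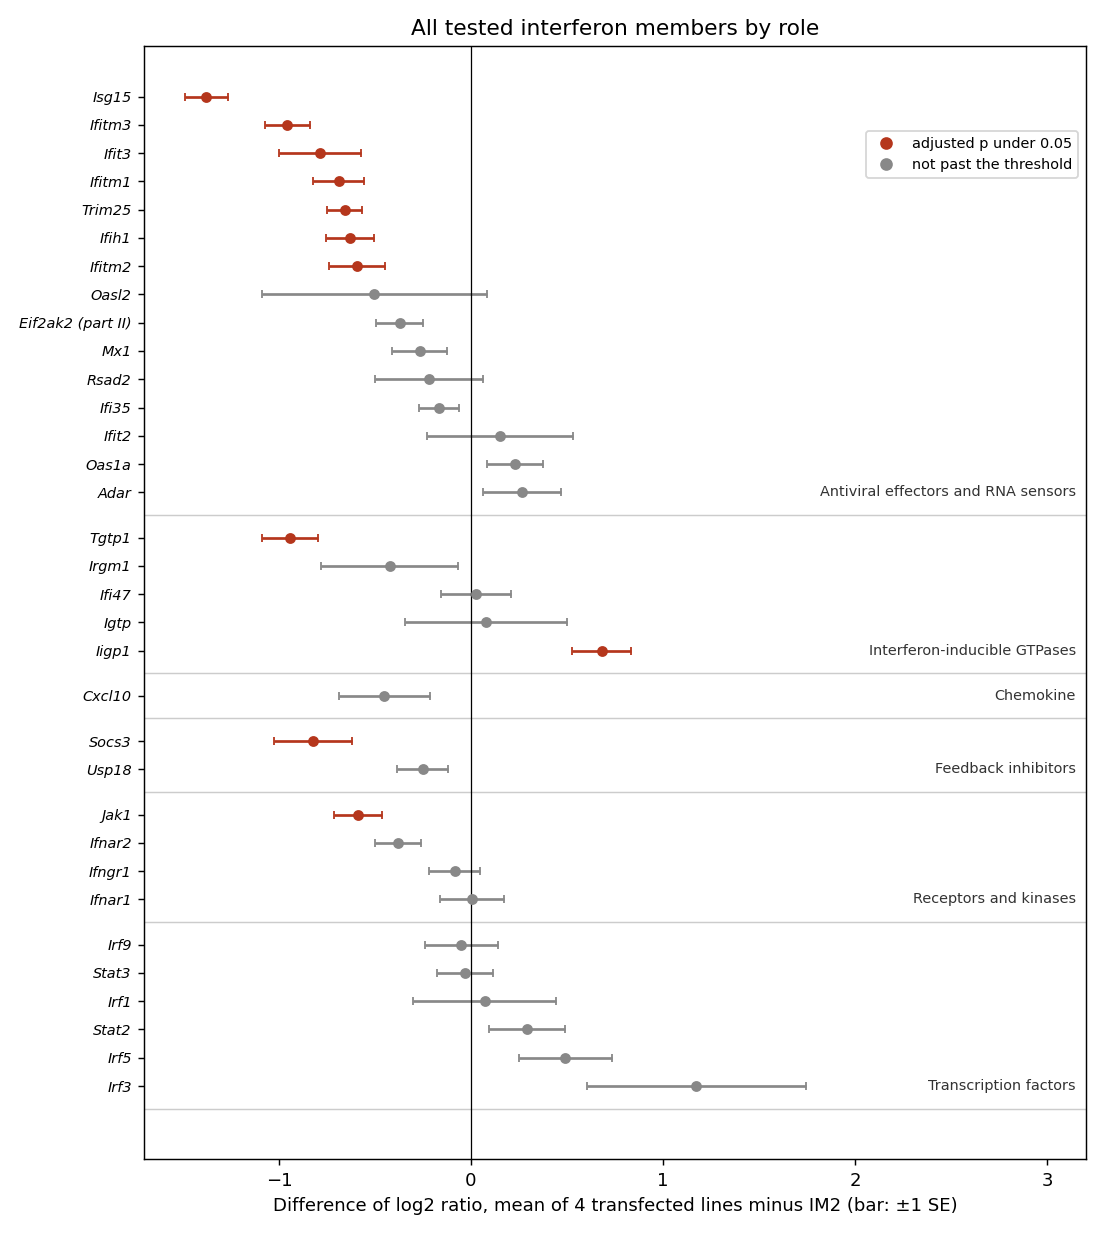
Difference in log2 ratio between the mean of the 4 transfected lines and IM2 (horizontal axis; bars are 1 SE either side) for the 33 tested members, grouped by role down the page, with those past the adjusted threshold in red. Effectors and sensors reach from -1.38 for Isg15 to 0.27 for Adar, and all 6 transcription factors stay grey.

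Of the feedback inhibitors, 1 of 2 tested members fell, against 8.83% of all probes, and 2 members are too few to describe the role. Socs3, which blocks JAK kinases and answers chiefly to cytokines that act through Stat3, had log2 ratios of -0.96, -0.32 and -0.26 in D7E, -0.38, -0.60 and -0.03 in D7F, -0.86, -0.67 and -0.52 in WTA and -0.47, -0.25 and -0.70 in WTD, against 0.20 and 0.44 in the 2 measured IM2 cultures. All transfected cultures lay below both IM2 cultures, and D7F culture 3 came nearest. The difference was -0.82 ± 0.20 (SE, limma adjusted p = 0.0177), and its adjusted p was 0.0737 without IM2 culture 1 and 0.113 without IM2 culture 2. With the IM2 arrays given the opposite sign the difference was -0.18 (adjusted p = 0.567). Usp18, which removes Isg15 from proteins and damps signalling at Ifnar2, was at -0.25 (adjusted p = 0.224).

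Among receptors and kinases, 1 of 4 tested members fell, against 8.83% of all probes, and 1 call among 4 does not describe the role. Their median difference was -0.23. Jak1, the kinase shared by the receptors of both interferon types, had log2 ratios of -0.81, -0.77 and -0.43 in D7E, -0.71, -0.47 and -0.33 in D7F, -0.50, -0.52 and -0.07 in WTA and -0.58, -0.75 and -0.54 in WTD, against 0.16, 0.06 and -0.08 in IM2. WTA culture 3 overlapped IM2 culture 3, and the other transfected cultures lay below. The difference was -0.59 ± 0.12 (SE, limma adjusted p = 0.00864), with an adjusted p of 0.0569 without IM2 culture 1. Ifnar2 was at -0.38 ± 0.12 (SE, adjusted p = 0.053), while Ifnar1 at 0.006 and Ifngr1 at -0.08 lay near 0.

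None of the 6 tested transcription factors passed, against 15.2% of all probes, and their median difference was 0.18. The differences were -0.05 for Irf9 and -0.03 for Stat3, 0.07 for Irf1, 0.29 for Stat2, 0.49 for Irf5 and 1.17 for Irf3. The large value of Irf3, a factor activated by viral sensing, had an SE of 0.57 (adjusted p = 0.19). Its cultures were at -0.03, 2.17 and 0.55 in D7F, against -0.0071, 0.67 and -2.46 in IM2. Cxcl10, a chemokine that attracts T cells and the only chemokine of the group, was at -0.45 (adjusted p = 0.22).

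Signs on single arrays were counted over both dye orientations together, relative to the IM2 reference. All 24 measured arrays of the transfected lines were below 0 for Isg15, Ifitm1, Ifitm3, Tgtp1, Trim25 and Jak1, 23 of 24 for Ifih1 and Ifitm2, 22 of 24 for Socs3 and 19 of 23 for Ifit3. For Iigp1, 6 of 24 were below 0. These arrays are those behind the calls, so the counts describe the calls and add no separate support. The same counts were not made over all probes.

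Of the arrays, 9 had over 20% of their filled values at a limit or under 70% of their rows filled. Without those 9 arrays, with 1 dye array per culture being enough, Isg15 (-1.37), Ifitm3 (-0.99), Tgtp1 (-0.98), Trim25 (-0.72) and Ifitm1 (-0.62) still passed, against 2.55% of all probes. The others kept their direction and missed the threshold: Ifih1 at -0.44 (adjusted p = 0.0779), Socs3 at -0.67 (adjusted p = 0.0846), Ifitm2 at -0.57 (adjusted p = 0.0924), Jak1 at -0.55 (adjusted p = 0.118), Iigp1 at 0.44 (adjusted p = 0.12) and Ifit3 at -0.87 (adjusted p = 0.169). Ifitm2 (adjusted p = 0.0544) and Ifit3 (adjusted p = 0.139) also missed it with all arrays kept and 1 dye array being enough.

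Members with a probe but too few measured cultures are given as values, with no test. Ifit1, an effector that binds viral RNA ends, was measured in 9 transfected cultures, from -3.74 to -0.28 with a median of -1.01, against -0.02 and 0.28 in 2 IM2 cultures. All 9 lay below both IM2 cultures. Jak2, the kinase paired with Jak1 at the interferon gamma receptor, lay between -1.39 and -0.36 in 10 transfected cultures (median -0.57), against -0.37, 0.03 and 0.27 in IM2. The lowest IM2 culture overlapped the transfected range. Gbp3, a guanylate-binding protein, lay between -1.16 and 0.05 in 11 transfected cultures, against -0.68 in the 1 measured IM2 culture. Mx2 was measured in 7 transfected cultures (-1.01 to 1.21), Socs1 in 4 (-2.33 to 1.42), Gbp2 in 3 (-1.34 to 0.08) and Irf7, a factor that amplifies type I interferon production, in 2, both of WTD (-1.63 and -2.91). In IM2, Mx2 had -0.05 and 0.55 in 2 cultures, Gbp2 -0.41 and Irf7 -0.02 in 1 culture each, and Socs1 was measured in 0 cultures. Mx2 was not tested because WTD had 1 measured culture.

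To show where interferon elements lie near the starts of these genes, RefSeq promoter windows of mouse build GRCm38.p6, 250 bases before to 50 after a start, were searched on both strands. The core of the interferon-stimulated response element was taken as GAAANNGAA (TTCNNTTTC on the other strand) and the gamma activated site as TTCNNNGAA. A window was held for 39 of the 43 members and not for Iigp1, Mx1, Mx2 and Usp18. The response element core was in 20 of the 39 (51.3%), against 8.6% of all 32851 windows and 9.8% of all 27025 genes. The gamma activated site was in 13 of the 39 (33.3%), against 8.3% of all windows and 9.6% of all genes. Of the 10 members that fell, 7 held the core and 3 the gamma activated site, and of the 20 members with a window that were tested and did not fall, 8 and 9 held them.

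The 4 stretches that follow show the matches before the start in members that fell, with the matches in capitals and each stretch written 5′ to 3′ on the strand of its gene. The first is from the gene with the largest fall, in which 3 cores overlap to form a single run that begins 78 bases before the start (chr4:156200856-156200916, minus strand).
Isg15: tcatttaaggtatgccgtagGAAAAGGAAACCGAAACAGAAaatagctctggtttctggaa
Tgtp1 holds a gamma activated site that begins 88 bases before the start and a core that begins 77 bases before it, without overlap (chr11:48992295-48992354, minus strand).
Tgtp1: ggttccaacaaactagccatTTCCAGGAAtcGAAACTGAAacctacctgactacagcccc
Ifit3 holds 3 separate cores on the opposite strand, which begin 155, 121 and 102 bases before the start (chr19:34583354-34583455, plus strand).
Ifit3: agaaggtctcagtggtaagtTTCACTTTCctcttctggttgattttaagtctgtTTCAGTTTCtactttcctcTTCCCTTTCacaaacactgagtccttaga
Trim25 holds 1 core on the opposite strand, which begins 9 bases before the start (chr11:88999374-88999402, plus strand).
Trim25: ccagggcgccgcccctcctgTTCAGTTTC
Of the Ifitm genes, Ifitm3 held cores that begin 2 and 19 bases after the start and a gamma activated site 13 bases after it. Ifitm2 held a core 46 bases before the start. Ifih1 held cores 112 bases before and 32 bases after the start, and Socs3 a gamma activated site 154 bases before it. The windows of Ifitm1 and Jak1 held neither set of letters, which says nothing of elements elsewhere. A match is a description of the sequence and not a bound site.

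Taken line by line, all 4 transfected lines had members that fell. In D7E 9 of 33 fell, against 8.21% of all probes, and 1 rose, against 4.12%. In D7F 6 fell, against 2.92% of all probes, and 0 rose (12 members had an unadjusted p under 0.05 in either direction), against 1.6%. In WTA 11 fell, against 6.38% of all probes, and 1 rose, against 5.17%. In WTD 5 fell, against 4.95% of all probes, and 0 rose (11 members had an unadjusted p under 0.05 in either direction), against 2.08%. The median differences of the members were -0.23 in D7E, -0.22 in D7F, -0.33 in WTA and -0.15 in WTD. These 4 comparisons share the IM2 cultures, so their calls are not independent of each other.

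Isg15, Ifitm3 and Tgtp1 fell in all 4 lines. The Isg15 difference was -1.67 in D7E, -1.35 in D7F, -1.84 in WTA and -0.66 in WTD, each with an SE of 0.14. Tgtp1 was more even, at -1.05 in D7E, -0.96 in D7F, -0.87 in WTA and -0.89 in WTD. Trim25 and Ifitm1 passed in D7E, D7F and WTA, and Ifih1 in D7E, WTA and WTD, while WTD missed the threshold for Trim25 (adjusted p = 0.103) and Ifitm1 (adjusted p = 0.0621), and D7F missed it for Ifih1 (adjusted p = 0.13). Ifitm2 passed in D7F and WTA, Jak1 in D7E and WTD, and Socs3 in D7E and WTA. Ifit3, Mx1 and Ifnar2 passed in WTA and Eif2ak2 in D7E, each in 1 line, and the F-test among the 4 lines did not pass for any of them (adjusted p from 0.323 to 0.767). Iigp1 rose in D7E and WTA, and its difference was 0.68 (adjusted p = 0.0558) in WTD and 0.57 (adjusted p = 0.123) in D7F. Single cultures moved these counts: 6 members passed in D7E without D7E culture 1 or 2 or IM2 culture 1 or 3 (6.06% to 7.88% of all probes, in place of 12.3%), and 3 in D7F without D7F culture 2 or 3 or IM2 culture 3 (2.06% to 2.88% of all probes, in place of 4.51%). In WTA 7 passed without WTA culture 1 or IM2 culture 3 (5.7% and 6.45% of all probes, in place of 11.6%). In WTD 1 passed without any 1 of its own cultures or IM2 culture 3, and 2 without IM2 culture 1 (3.03% to 4.01% of all probes, in place of 7.03%). With only the lines compared in the fit, which leaves fewer cultures to estimate the spread, 3 members passed in D7E and 0 in each of D7F, WTA and WTD (limma; 9, 14 and 12 members had an unadjusted p under 0.05). Of all probes, 1.7% passed in that fit in D7E, 0.157% in D7F, 0.00941% in WTA and 1.62% in WTD.

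**Figure D3:**
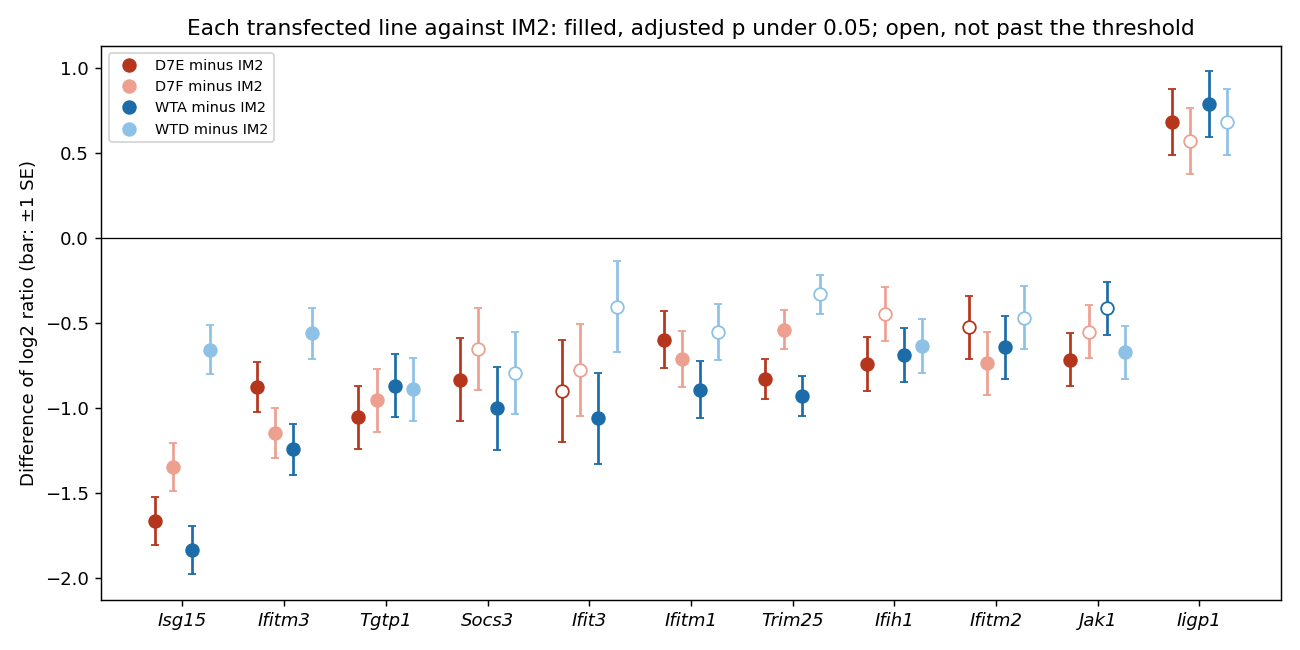
Difference in log2 ratio of D7E, D7F, WTA and WTD from IM2 (vertical axis; bars are 1 SE either side) for the 11 members that changed in the transfected mean, with filled points past the adjusted threshold and open points not. WTD is nearest to 0 for Isg15, at -0.66, while for Tgtp1 the 4 lines lie between -1.05 and -0.87.

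The order of the line means differed between the members that fell. WTA had the lowest mean for 6 of the 10, D7E for 3 and D7F for 1, and WTD had the highest mean for 6, D7F for 2 and WTA for 2. Across the 4 transfected lines, an F-test of any difference passed for 1 member, Isg15 (F = 26.58, limma adjusted p = 0.0031), against 1.66% of all probes. Trim25 (adjusted p = 0.0511) and Ifitm3 (adjusted p = 0.0799) came next. The F-test takes the 4 lines together, and no pair of neighbours in the order of line means was tested. Neighbours are therefore not shown to differ for any member, Isg15 included. The Isg15 call was lost with arrays centred and scaled, on Cy3 arrays alone and on Cy5 arrays alone.

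Mutant against wild-type, the comparison that bears on the disease allele, gave no member past the threshold. Of 33 members 0 passed in limma with Benjamini-Hochberg adjustment, against 0.196% of all probes, and 1 member, Isg15, had an unadjusted p under 0.05. The median difference of the members was 0.0017, and the differences lay between -0.33 and 0.32. Isg15 averaged -1.62 in D7E and -1.31 in D7F, against -1.80 in WTA and -0.62 in WTD, which is a difference of -0.26 ± 0.10 (SE, adjusted p = 0.656). A p that misses the threshold does not show that the genotypes are alike. Within each label the mutant line averaged less Pabpn1 than the wild-type line, as given above. Genotype, Pabpn1 level and the particular lines therefore cannot be told apart in this comparison.

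High against low gave 2 of 33 members, against 0.381% of all probes, and both fell in the lines labelled high. For Isg15 the mean of D7E and WTA differed from that of D7F and WTD by -0.75 ± 0.10 (SE, limma adjusted p = 0.00575). Trim25 averaged -0.80 in D7E and -0.90 in WTA, against -0.51 in D7F and -0.30 in WTD, a difference of -0.44 ± 0.08 (SE, limma adjusted p = 0.0438). All cultures labelled high lay below all cultures labelled low for Trim25, while for Isg15 the D7F cultures reached the range of D7E. The Trim25 result passed in 3 of 27 other settings, 1 of them among the 15 fits that left out a culture. That of Isg15 passed in 23 of 27, among them all 15 of those fits, and missed with arrays centred and scaled (-0.20, adjusted p = 0.804), on Cy3 arrays alone, on Cy5 arrays alone and without the 9 poorest arrays. For both genes the passes include the setting with the IM2 arrays turned, which cannot change a comparison among transfected lines. The median difference of the members was -0.11. Pabpn1 averaged higher in the lines labelled high within each genotype, as given above, and with 1 line per genotype and level, the level and the line cannot be told apart.

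The genotype-by-level interaction, written as the mean of D7E and WTD minus the mean of D7F and WTA, asks whether the step between high and low differs between mutant and wild-type lines. It passed for 2 of 33 members, against 2.37% of all probes, and both values were positive. For Isg15 it was 0.43 ± 0.10 (SE, limma adjusted p = 0.0474), with the mutant lines close together at -1.62 and -1.31 and the wild-type lines apart at -1.80 and -0.62. For Ifitm3 it was 0.48 ± 0.10 (SE, limma adjusted p = 0.0335), with means of -0.95 in D7E and -1.22 in D7F, against -1.32 in WTA and -0.64 in WTD. The Ifitm3 mean of the high line was therefore above that of the low line among the mutants and below it among the wild-type lines. Neither step was tested on its own, and the D7E and D7F cultures overlapped. Both calls were near the threshold: that of Isg15 passed in 4 of 27 other settings and in 1 of the 15 fits among them that left out a culture, and that of Ifitm3 in 5 of 27 and 3 of 15. The setting that turned the IM2 arrays cannot change this comparison and is among those counted as passed.

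**Figure D4:**
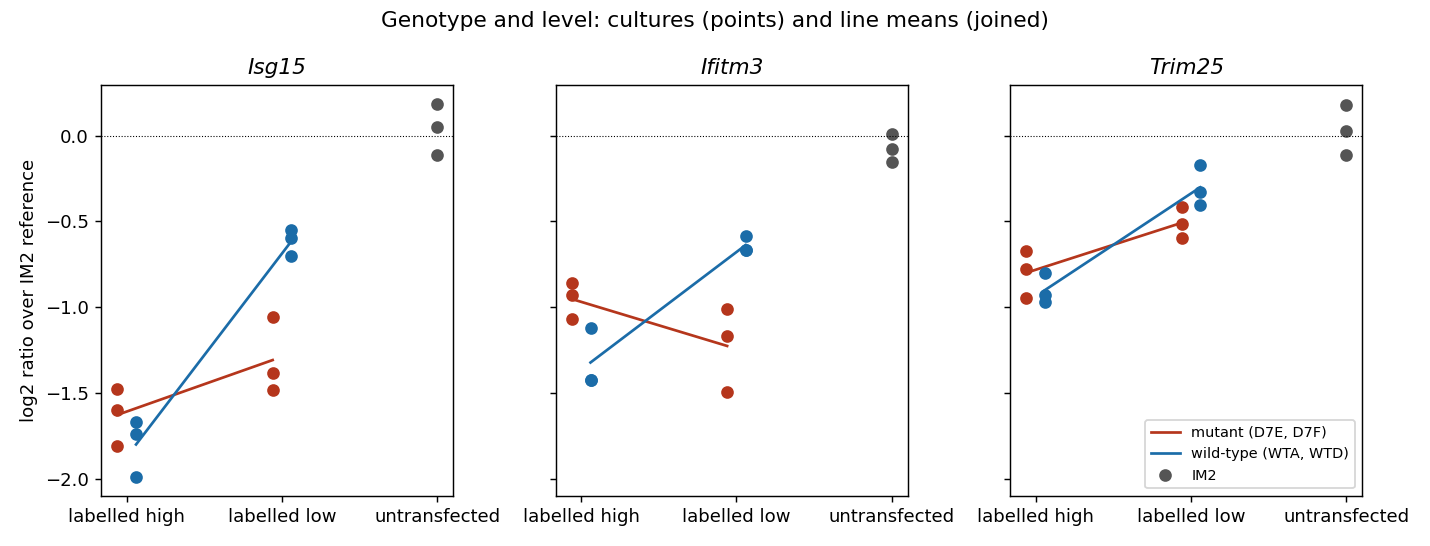
Log2 ratio over the IM2 reference (vertical axis) of Isg15, Ifitm3 and Trim25 in the lines labelled high, those labelled low and untransfected IM2 (horizontal axis), with cultures as points and line means joined for mutant (red) and wild-type (blue) lines. Isg15 and Trim25 lie lower on average in the lines labelled high. For Ifitm3 the line means step in opposite directions: -0.95 and -1.22 in the mutant lines, -1.32 and -0.64 in the wild-type lines. Cultures of D7E and D7F overlap for Ifitm3.

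Beyond these members, 142 further genes of interferon ligands, signalling, sensing and induction were listed, of which 101 had a probe in the tables and 60 were tested. That list too was chosen with earlier results of these data known. In the transfected mean against IM2, 10 of these 60 genes fell, against 8.83% of all probes, and 1 rose, against 6.41%, and the median difference of their probes was -0.02. Of the 31 tested genes listed as interferon-induced, 9 fell, against the same 8.83% of all probes, and 0 rose, with 15 at an unadjusted p under 0.05 in either direction and a median of -0.0088, and of 20 signalling genes 1 fell and 1 rose. None of 4 ligand genes or 5 sensing genes passed, with 0 and 1 of them at an unadjusted p under 0.05. The largest falls were in Ifi30, a lysosomal thiol reductase (-1.04, limma adjusted p = 0.0195), Plscr1, a membrane protein with antiviral action (-0.86, adjusted p = 0.00601), and Ifi27 (-0.77, adjusted p = 0.00088). Isg20, an RNA exonuclease (-0.74, adjusted p = 0.00364), Ifi203, an interferon-activated nuclear protein (-0.64, adjusted p = 0.0141), and Ms4a4c (-0.59, adjusted p = 0.0151) followed. Socs6, a relative of Socs3, rose on both of its probes, by 0.35 (adjusted p = 0.0304) on part I and 0.65 (adjusted p = 0.00559) on part II.

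Some cell type markers moved as well. In the transfected mean against IM2, 4 of 5 tested fibroblast marker genes fell (Col3a1 -1.44, Col1a2 -1.35, Col1a1 -1.22 and Vim -0.61), against 8.83% of all probes, and 4 of 10 tested muscle markers rose (Mef2c 0.60, Myf6 0.54, Tnnt3 0.47 and Myod1 0.31), against 6.41% of all probes. Of 3 tested endothelial markers 0 passed, with 0 at an unadjusted p under 0.05. Of 15 leukocyte markers 13 had a probe, and 1, Laptm5, was tested and was at -0.13 (adjusted p = 0.91). Ratios to a reference do not show how strongly a marker is expressed, so the cell type of the lines could not be checked. The part of these marker shifts in the interferon results was not tested.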

How the data were processed

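The deposited values are log ratios between a culture and the common IM2 reference, per the labels' channel sources. Their base is not stated. How the authors scanned, background-corrected and normalised them is not given in the sources used here. Base 10 (log10) was assumed, since the deposited values end at -2 and 2, and multiplication by 3.3219 gave log2 ratios. All ratios were read as culture over reference. No marker shows the direction of part II or of the IM2 arrays. The 6 genes that changed on both parts had the same sign on both. Fits were repeated with the IM2 arrays turned, but not with part II turned.

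Values at -2 and 2 were left out, the 2 dye arrays of a culture were averaged (both required), and a probe needed 2 measured cultures in each line, which 4650 probes of part I and 5054 of part II had. Each part was fitted with lmFit and eBayes of limma (3.58.1, under R 4.3.3) over all 5 lines, with Benjamini-Hochberg adjustment over both parts and a threshold of 0.05. The fit was also run on simulated data with independent normal noise, without dye or array effects, which does not check the calls made here. Titles and channel sources disagree on the dye of WTA culture 3 on part I, and the channel sources were used; 1 part I array of D7F culture 1 is described as high, and its title was used. No depth can be given for ratios, so the number of arrays limits the precision. Gene symbols came from the platform annotation, updated by Entrez identifier.

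The members and lists were chosen with earlier results of these data known. Members that changed in the transfected mean or in the F-test are named with all culture values, other members by role with their range, and of the further pathway genes at most the 6 largest changes in each direction. Deviations of same-numbered cultures from their line means correlated between -0.30 and 0.43 on part I and -0.29 and 0.53 on part II, so the numbers were not taken to pair cultures. Alternatives kept the limit values, turned the IM2 arrays, centred or scaled arrays, used 1 dye, changed the measurement filter or the lines fitted, left out arrays or cultures, set ratios against 0, or blocked by culture number. Promoter sequences are from RefSeq (GRCm38.p6).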

Additional observations from a re-analysis of the deposited data

Results flagged for a closer look

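For 2 members the step between the lines labelled high and low differed between mutant and wild-type lines, by the test of that difference itself. The genotype-by-level interaction was 0.48 for Ifitm3 and 0.43 for Isg15, with limma adjusted p of 0.0335 and 0.0474, in a comparison that 2.37% of all probes passed. The call of Ifitm3 was kept in 5 of 27 other settings and in 3 of the 15 among them that left out a culture, and that of Isg15 in 4 of 27 and 1 of 15. These counts include the setting with the IM2 arrays turned, which cannot change the interaction. Each genotype and level is 1 line, so the interaction and the particular lines cannot be told apart.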

How the results depend on the processing

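In the transfected mean against IM2, Isg15, Ifitm3, Ifitm1 and Tgtp1 passed in all 27 other settings, with a highest adjusted p of 0.004, 0.0061, 0.0492 and 0.0262, and Trim25 passed in 26, missing with Cy5 arrays alone (adjusted p = 0.055). Single-member results were followed for all tested members in the transfected mean. In the other comparisons they were followed only where the member passed in the main fit, so gains there were not counted. Of the values so followed in other settings, 398 lost the threshold, 17 gained it and 1518 stayed on their side of it. Among the same values the sign turned in 61 of 15 members (F-test left out), 58 of them past the threshold in neither setting. The other 3 were Iigp1: with the IM2 arrays given the opposite sign, Iigp1 was at -0.21 in the transfected mean, -0.0994 in WTA and -0.21 in D7E. Counts of members that passed, in the order D7E, D7F, WTA and WTD, were 10, 6, 12 and 5. The shares of all probes that passed were 12.3%, 4.51%, 11.6% and 7.03%. Those that moved by over 1.5 times follow, each with the share of all probes that passed in the same fit. With limit values kept they were 7 in WTA (5.24%) and 2 in WTD (2.96%). With arrays centred and scaled they were 6 in WTA (3.92%) and 8 in WTD (11.8%). With 1 dye array enough, 3 passed in D7F (1.17%), 6 in WTA (3.5%) and 0 in WTD (1.39%). Cy3 arrays alone gave 5 in D7E (3.71%), 6 in WTA (4.59%) and 2 in WTD (2.26%). Cy5 arrays alone gave 3 in D7E (3.27%), 1 in D7F (0.786%), 3 in WTA (2.26%) and 0 in WTD (1.7%). Without the poorest arrays they were 4, 2, 3 and 0 (2.07%, 0.676%, 1.43% and 0.613%). With 1 culture per line enough they were 6 in D7E (6.99%) and 3 in WTD (3.6%). Set against 0 in place of the IM2 cultures, 9 passed in WTD (13.1%). With only the lines compared they were 3, 0, 0 and 0 (1.7%, 0.157%, 0.00941% and 1.62%). The 11 members of the transfected mean became 4 with Cy5 arrays alone (5.44% of all probes, in place of 15.2%), 5 without the poorest arrays (2.55%) and 20 against 0 (39.6%). The 2 members of the high against low comparison became 1 with limit values kept, arrays centred, 1 dye array enough or 1 culture enough. The replicate block and the fit of only the lines compared also left 1. They became 0 with arrays centred and scaled, Cy3 alone, Cy5 alone or without the poorest arrays. In these settings 0.0545% to 0.33% of all probes passed, in place of 0.381%. The 2 members of the interaction became 1 with arrays centred (2.44% of all probes, in place of 2.37%). They became 0 with limit values kept, arrays centred and scaled, 1 dye array enough, Cy3 alone, Cy5 alone or without the poorest arrays. None passed with 1 culture enough, the replicate block or only the lines compared. In the settings with 0 members, 0.288% to 2.83% of all probes passed. The 1 member of the F-test became 0 with arrays centred and scaled (1.85% of all probes), Cy3 alone (0.482%) or Cy5 alone (0.226%). With probes measured in all 15 cultures 3 passed (4.92% of all probes, in place of 1.66%). Where limma gave 0, the members with an unadjusted p under 0.05 were 9 in D7F, 14 in WTA, 7 to 12 in WTD, 0 to 6 for high against low, 2 to 4 in the interaction and 2 to 5 in the F-test. The replicate block left 12 members in the transfected mean (14.4% of all probes). Leaving out 1 culture at a time gave 6 to 9 members in D7E (6.06% to 14.5% of all probes) and 3 to 7 in D7F (2.06% to 7.64%). It gave 7 to 10 in WTA (5.7% to 13.4%) and 1 to 6 in WTD (3.03% to 10.4%). The transfected mean had 7 to 12 (6.62% to 16.8%) and the interaction 0 to 2 (0.967% to 2.3%). High against low had 1 to 2 (0.183% to 0.746%) and mutant against wild-type 0 (0.101% to 0.286%). The cause of these moves was not tested. Signal over background is unknown, so no limit of detection can be given.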
